A study of Rattus norvegicus with 6 samples.

Results

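Periostin (Postn) and Tgfbi, the protein induced by transforming growth factor beta, are the secreted members of the fasciclin-domain family. Both were taken by the gene symbol of their probe sets on a rat expression array, and each had 1 probe set (1373911_at for Postn and 1371913_at for Tgfbi), so that they make up 2 of 15866 probe sets and 2 of 10411 named genes. The pair was picked out because of its difference between the diets, so that this difference is given here as a description, without a test. The arrays measured RNA of intact cerebral arteries from Dahl rats, a rat line used for its blood pressure response to dietary salt. Rats in the low salt group ate chow with 0.4% NaCl and rats in the high salt group chow with 8% NaCl, in both cases from 7 weeks of age, and before that both had the low salt chow. Low salt feeding lasted 12 weeks, and high salt feeding 11 or 12 weeks, since the labels' fields differ on it. Each array held RNA pooled from 3 rats, and there were 3 arrays and 9 rats per diet. The vessels were resistance branches of the basilar artery and the circle of Willis, taken whole with every cell type of the wall, and either frozen or kept in a preservative, with no record of which pool had which.

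Periostin and Tgfbi share a layout of repeated fasciclin domains behind a cysteine-rich amino-terminal region. Both bind collagens and fibronectin outside the cell and signal into it through integrins, and transforming growth factor beta (TGF-beta) is a known inducer of each. Periostin is scarce in most healthy adult tissue and is made by activated fibroblasts and smooth muscle cells in injured vessels, heart and bone lining. Tgfbi is made by many cells, macrophages and endothelial cells among them, and is best known from the cornea.

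The stretch just upstream of each gene's transcript start is shown because it is where the members could share short motifs. Both genes were found in the RefSeq promoter table (build GRCr8). The 250 bases upstream of Postn lie at chr2:140677811-140678060 on the plus strand, and those upstream of Tgfbi at chr17:7990114-7990363 on the minus strand. Capitals mark matches on either strand to the E-box letters CANNTG, the letters CAGAC of the Smad-binding element, the letters TGANTCA of the AP-1 site, the letters TATAAA of the TATA box or the letters GGGCGG of the GC box, with no matches overlapping.
Postn: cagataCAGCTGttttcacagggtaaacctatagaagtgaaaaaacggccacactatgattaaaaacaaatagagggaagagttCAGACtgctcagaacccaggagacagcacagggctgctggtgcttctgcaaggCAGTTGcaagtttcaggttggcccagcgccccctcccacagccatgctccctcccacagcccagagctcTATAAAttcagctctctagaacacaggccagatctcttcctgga
Tgfbi: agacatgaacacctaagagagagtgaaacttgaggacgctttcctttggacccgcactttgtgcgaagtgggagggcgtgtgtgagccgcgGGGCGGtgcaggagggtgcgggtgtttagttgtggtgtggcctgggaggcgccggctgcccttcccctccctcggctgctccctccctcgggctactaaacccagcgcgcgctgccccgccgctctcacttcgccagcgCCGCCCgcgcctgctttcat
The Postn stretch held 2 E-boxes, at -244 and -113 from the transcript start, 1 Smad-binding element at -166 and 1 TATA box at -44. The Tgfbi stretch held 2 GC boxes, at -159 and -20, and no match to the other motifs. Neither held an AP-1 site. Of 33469 rat promoters of the same length, 65.5% held an E-box, 42.9% a Smad-binding element, 12.9% a TATA box, 30.5% a GC box and 6.34% an AP-1 site. The base composition also differed, with 50.8% G and C in the Postn stretch and 2 CG pairs, against 65.6% and 22 CG pairs in that of Tgfbi, where the median promoter had 51.2%. A match describes letters in the window and says nothing about binding.

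Postn was low on every low salt array and high on 2 of the 3 high salt arrays. On low salt its log2 values were 6.49, 6.54 and 6.86 in replicates 1, 2 and 3. On high salt they were 9.78, 7.28 and 10.17. The diets did not overlap, but high salt replicate 2 stood near the low salt arrays and the other two high salt arrays far above. The mean was 6.63 ± 0.20 (SD, n = 3) on low salt and 9.07 ± 1.57 (SD, n = 3) on high salt, a difference of 2.45 ± 0.76 (moderated SE) log2 units, or 5.46-fold. Detection calls were not used here, so that it is not known whether the low salt Postn values lie above the array's background. Relative to the low salt mean, replicate 1 was 8.88-fold higher, replicate 3 was 11.7-fold higher and replicate 2 was 1.57-fold higher. High salt replicates 1 and 3 together averaged 9.97, which is 6.48-fold above replicate 2 of their own diet. The lowest high salt value lay 0.42 above the highest low salt value, so that the size of the mean difference rested on 2 pools. Without high salt replicate 2 the difference was 3.35, and without replicate 3 it was 1.90. In size the rise ranked 2 of 10411 genes, after Spp1, and the SD among the high salt arrays also ranked 2.

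**Figure D1:**
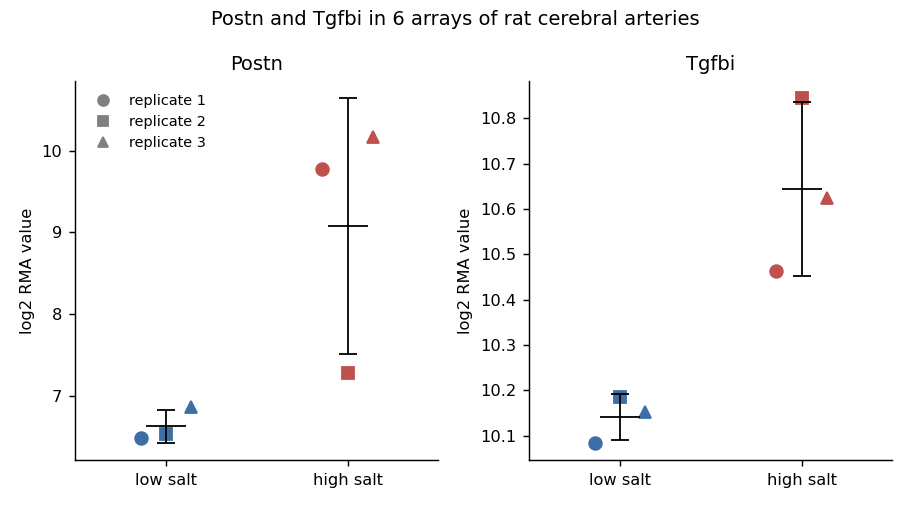
Log2 RMA values (vertical axes, different scales) of Postn and Tgfbi on the 3 low salt and 3 high salt arrays, with symbols for the replicate number and bars for the mean ± SD of the 3 arrays. High salt replicate 2 (square) is the lowest high salt array for Postn, at 7.28, and the highest for Tgfbi, at 10.84.

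Tgfbi was higher on all 3 high salt arrays by a small amount. On low salt its log2 values were 10.08, 10.19 and 10.15 in replicates 1, 2 and 3. On high salt they were 10.46, 10.84 and 10.62. The low salt arrays were close together and every high salt array lay above them. Their range of 0.10 was narrower than that of all but 6.60% of genes on the same arrays. The mean was 10.14 ± 0.051 (SD, n = 3) on low salt and 10.64 ± 0.19 (SD, n = 3) on high salt, a difference of 0.50 ± 0.12 (moderated SE), or 1.42-fold. Replicate 2 was 1.63-fold, replicate 3 was 1.40-fold and replicate 1 was 1.25-fold above the low salt mean. The gap between the lowest high salt and the highest low salt array was 0.28, and with 1 array left out the difference ran from 0.40 to 0.59. In size the rise ranked 1420 of 10411 genes. For comparison, 8.64% of all genes were higher on high salt with no overlap between the diets; as both members were picked on this contrast, nothing is read from their doing so.

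High salt replicate 2 stood at opposite ends for the pair, while replicate 3 lay above replicate 1 for both genes. For Postn the order was replicate 3, replicate 1, replicate 2, and for Tgfbi it was replicate 2, replicate 3, replicate 1. The pool with the least Postn signal of its diet, replicate 2 at 7.28, thus had the most Tgfbi signal, 10.84. On low salt, replicate 3 had the highest Postn value and replicate 2 the highest Tgfbi value, within ranges of 0.37 and 0.10. With 3 arrays per diet these orders were not tested.

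The Postn difference held under other scalings, and the separation of Tgfbi did not. After each array's median was subtracted, Postn differed by 2.32 and Tgfbi by 0.37, both without overlap. After quantile normalization, which gives all arrays the same distribution, Postn differed by 2.33 and the lowest high salt array was still 0.38 above the highest low salt array. Tgfbi then differed by 0.25, or 1.19-fold, and the diets overlapped. Low salt replicate 1 stood at 10.48, above high salt replicates 1 (10.30) and 3 (10.45), while low salt replicates 2 and 3 were at 10.11 and 10.21 and high salt replicate 2 at 10.81. The rank within the array gave the same picture. Tgfbi lay at the 87.6, 83.1 and 84.4 percentiles of probe sets on low salt and at the 85.6, 90.8 and 87.2 percentiles on high salt. Postn lay at the 22.2, 25.0 and 29.6 percentiles on low salt and at the 76.0, 36.0 and 81.7 percentiles on high salt. Low salt replicate 1 had the narrowest spread of values of the 6 arrays, with its upper quartile at 9.22 against 9.50 to 9.71 elsewhere, and it was the array on which quantile normalization moved Tgfbi most.

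**Figure D2:**
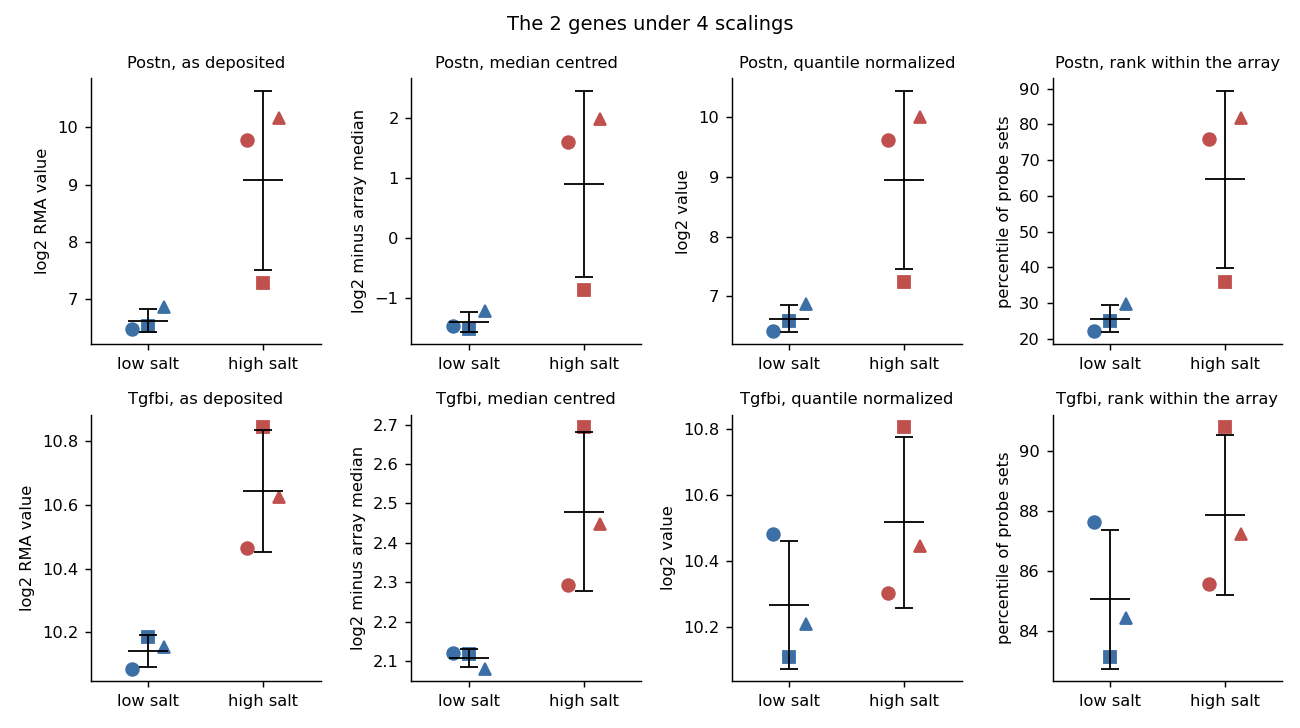
Postn (upper row) and Tgfbi (lower row) on the 6 arrays as deposited, after median centring, after quantile normalization and as the percentile of the probe set within its array (vertical axes), with bars for the mean ± SD of 3 arrays. The diets stay apart for Postn in all 4 panels, and overlap for Tgfbi after quantile normalization and by rank within the array.

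The genes whose values followed those of Postn most closely were ranked by Pearson's r over the 6 arrays, among 4388 genes brighter than the median gene and with an SD of at least 0.2. The first 8 were Penk (proenkephalin, r = 0.98), Spp1 (osteopontin, r = 0.97), Tnpo2 (a nuclear import receptor, r = 0.97), Fbln5 (fibulin 5, an elastic fibre protein, r = 0.96), Mepe (a bone matrix protein, r = 0.96), Alas2 (the haem synthesis enzyme of red cell precursors, r = 0.95), Ctdp1 (a phosphatase of RNA polymerase II, r = 0.95) and Gja5 (the endothelial gap junction protein connexin 40, r = 0.95). Like Postn, each of them had its lowest high salt value in replicate 2. As the ranking used these same 6 arrays, this likeness largely follows from the choice and is no separate result. Penk was at 9.20, 9.36 and 9.85 on low salt and at 11.44, 10.07 and 11.38 on high salt. Spp1 was at 8.40, 7.97 and 8.66 on low salt and at 11.57, 9.86 and 11.86 on high salt. High salt replicate 2 lay above every low salt array for Spp1, as it did for Postn. Mepe, at 8.25, 7.24 and 8.29 on low salt, was at 10.57, 8.21 and 10.40 on high salt, so that replicate 2 fell within the low salt range. Fbln5, Alas2, Ctdp1 and Gja5 overlapped between the diets in the same way. With 6 points such a ranking is unsteady: with 1 array left out, between 1 and 5 of these 8 genes were among the first 8 again, and after quantile normalization 2 were.

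Tgfbi was followed by other genes. It came at rank 1360 in likeness to Postn (r = 0.53). The 8 genes most like Tgfbi were Npdc1 (a neural differentiation protein, r = 0.999), Polr2b (an RNA polymerase II subunit, r = 0.98), Sirpa (a receptor of myeloid cells and neurons, r = 0.98), Nol3 (an inhibitor of apoptosis, r = 0.97), Abca3 (a lipid transporter, r = 0.96), Fkbp14 (a prolyl isomerase of the endoplasmic reticulum, r = 0.96), RT1-Bb (a class II antigen chain, r = 0.96) and Tmem127 (r = 0.96). All 8 were higher on high salt without overlap, and each had its highest value in high salt replicate 2. These shared traits too largely follow from ranking on the same arrays. Npdc1 was at 9.86, 9.93 and 9.92 on low salt and at 10.24, 10.59 and 10.37 on high salt, an almost parallel course to Tgfbi with a difference of 0.50. With 1 array left out, between 1 and 5 of the 8 were again among the first 8, and after quantile normalization 2 were. None of the 8 was among the 8 most like Postn.

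**Figure D3:**
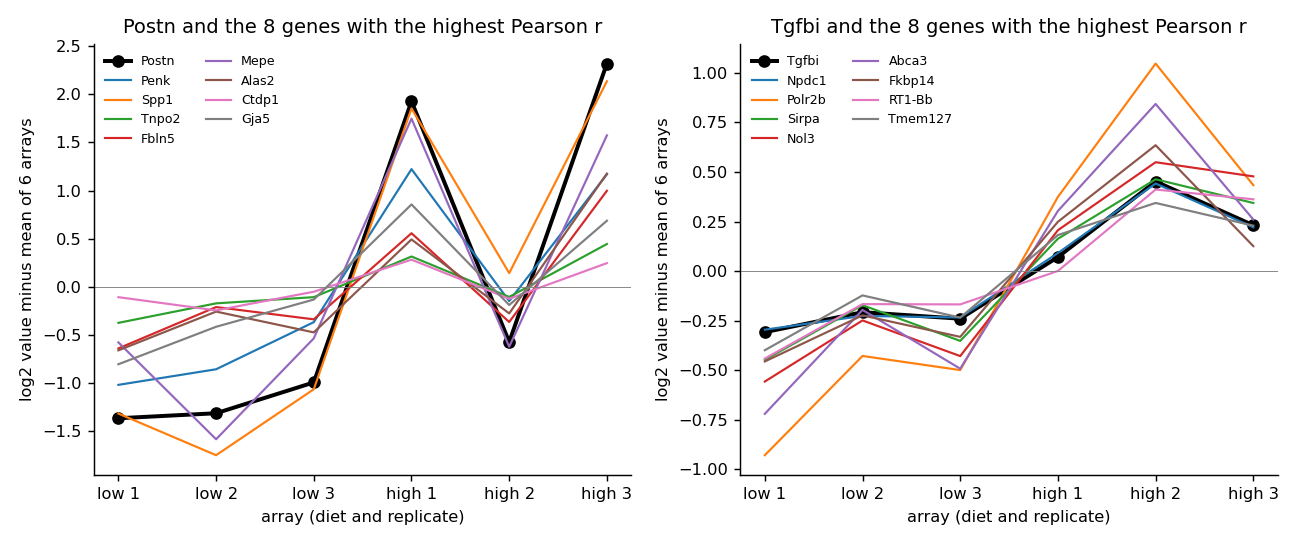
Log2 values minus each gene's mean over the 6 arrays (vertical axes) for Postn (left, black) and Tgfbi (right, black) with the 8 genes of highest Pearson's r with each, by array; the lines only join the points of a gene, as arrays have no order. High salt replicate 2 is the lowest high salt array for Postn and its 8 genes and the highest for Tgfbi and its 8 genes. The genes were picked on these arrays, so that the shared position largely follows from the choice.

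The remaining family members are the scavenger receptors stabilin 1 and 2 (Stab1 and Stab2), membrane proteins of macrophages and sinusoidal endothelium that carry fasciclin domains among others. Stab2 was not analysed here. Stab1 was at 9.52, 9.00 and 9.63 on low salt and at 10.04, 10.33 and 9.12 on high salt, with overlap and a difference of 0.45 ± 0.35 (SE). Stab1 was highest in high salt replicate 2, as Tgfbi was, and lowest in replicate 3, where Postn was highest.

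Genes that act upstream or downstream of the pair, or bind it, were read from 10 lists that overlap in part, the family's own among them, and 108 of their genes were measured besides Postn and Tgfbi. By limma over all probe sets 0 of the 108 passed an adjusted p of 0.05, where the background was 0% (0 of 15866 probe sets, of which 846 had an unadjusted p below 0.05), and the lowest adjusted p among them was 0.803 (limma, Benjamini-Hochberg). At an unadjusted p below 0.05 stood 11 of the 108 on the high side and 1 on the low side, against 5.72% and 0.711% of all genes. After median centring the split was 8 and 2 for the lists and 308 and 265 for all genes. Without low salt replicate 2 the list split was 23 and 8, and that of all genes rose as well, from 595 and 74 to 1591 and 490. Of the 108, 82 were on the high side as deposited, where 60.0% of all genes were. After median centring 68 of the 108 were, and after quantile normalization 63. The median of all genes was then -0.064 and -0.019, so that the 60.0% does not apply to these 2 scalings. The median difference of the 108 was 0.22, and that of all genes 0.067. Median centring moves the median of all genes from 0.067 to -0.064, and differences of that size in the lists below cannot be read apart from the scaling.

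Among the TGF-beta ligands and the proteins that store and activate them, which lie upstream of Postn and Tgfbi, 7 of 8 were on the high side, with a median of 0.20, and 0 had an unadjusted p below 0.05. Tgfb1 was at 7.47, 6.94 and 7.30 on low salt and at 7.35, 7.22 and 7.37 on high salt, a difference of 0.074 ± 0.16 that turned to -0.057 after median centring. Tgfb2 differed by 0.21 ± 0.17 and Tgfb3 by 0.19 ± 0.39. All 3 ligands overlapped between the diets. Of the latent binding proteins, which hold the ligands in the matrix, Ltbp1 was at 11.34, 10.45 and 11.45 on high salt and so had its lowest high salt value in the same pool as Postn, with 9.58, 10.48 and 10.70 on low salt and a difference of 0.83 ± 0.39. Ltbp2 (0.22 ± 0.11) and Ltbp3 (0.14 ± 0.11) turned sign after quantile normalization, to -0.027 and -0.087. Ltbp4 differed by -0.15 ± 0.28, and the convertase Furin by 0.23 ± 0.12.

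Of 10 TGF-beta receptors and Smads, the signal transducers, 8 were on the high side with a median of 0.31. The coreceptor Tgfbr3 was the 1 gene of all lists on the low side at an unadjusted p below 0.05, by -0.29 ± 0.091 (limma, adjusted p = 0.803), without overlap. Smad3, the Smad through which TGF-beta acts on many matrix genes, differed by 0.95 ± 0.39 with overlap, and was highest in replicate 3 of high salt (10.14), as Postn was. Among 17 genes induced by TGF-beta in other settings, 16 were on the high side, with a median of 0.28, and 5 had an unadjusted p below 0.05. Junb (a transcription factor, 1.04 ± 0.26), Ccn2 (connective tissue growth factor, 1.11 ± 0.32), Itgb5 (0.69 ± 0.20), Fn1 (fibronectin, 0.95 ± 0.33) and Id3 (a transcriptional inhibitor, 0.94 ± 0.35) were those 5. They differed in the pool they favoured. Itgb5 and Junb were lowest on high salt in replicate 2, as Postn was, while Ccn2 was highest there, as Tgfbi was. The lowest differences among the 17 were those of Id2 (-0.20 ± 0.28), Col1a1 (0.059 ± 0.14), Skil (0.084 ± 0.20) and Pmepa1 (0.094 ± 0.65). After median centring Col1a1, Skil and Pmepa1 turned to -0.071, -0.047 and -0.037. The median of the 17 was then 0.15, and after quantile normalization it was 0.12.

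Periostin and Tgfbi bind integrins, and of 7 measured subunits from that list 4 were on the high side, with a median of 0.23. Itgb5 pairs with the alpha v chain in a receptor for both proteins. It was at 8.97, 9.27 and 9.40 on low salt and at 10.11, 9.54 and 10.05 on high salt, without overlap, and replicate 2 again lay nearest to low salt. Its adjusted p was 0.803 (limma). Itgb1 differed by 0.23 ± 0.20, Itga1 by 0.49 ± 0.35, Itgb4 by 0.38 ± 0.18, Itga3 by -0.38 ± 0.22, Itga6 by -0.048 ± 0.094 and Itgam by -0.025 ± 0.20. Itgav and Itgb3 were not analysed here. The kinases and adaptors of focal adhesions, which lie downstream of these receptors, were split evenly, 7 of 14 on each side, with a median of 0.030 that turned to -0.10 after median centring and -0.14 after quantile normalization.

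**Figure D4:**
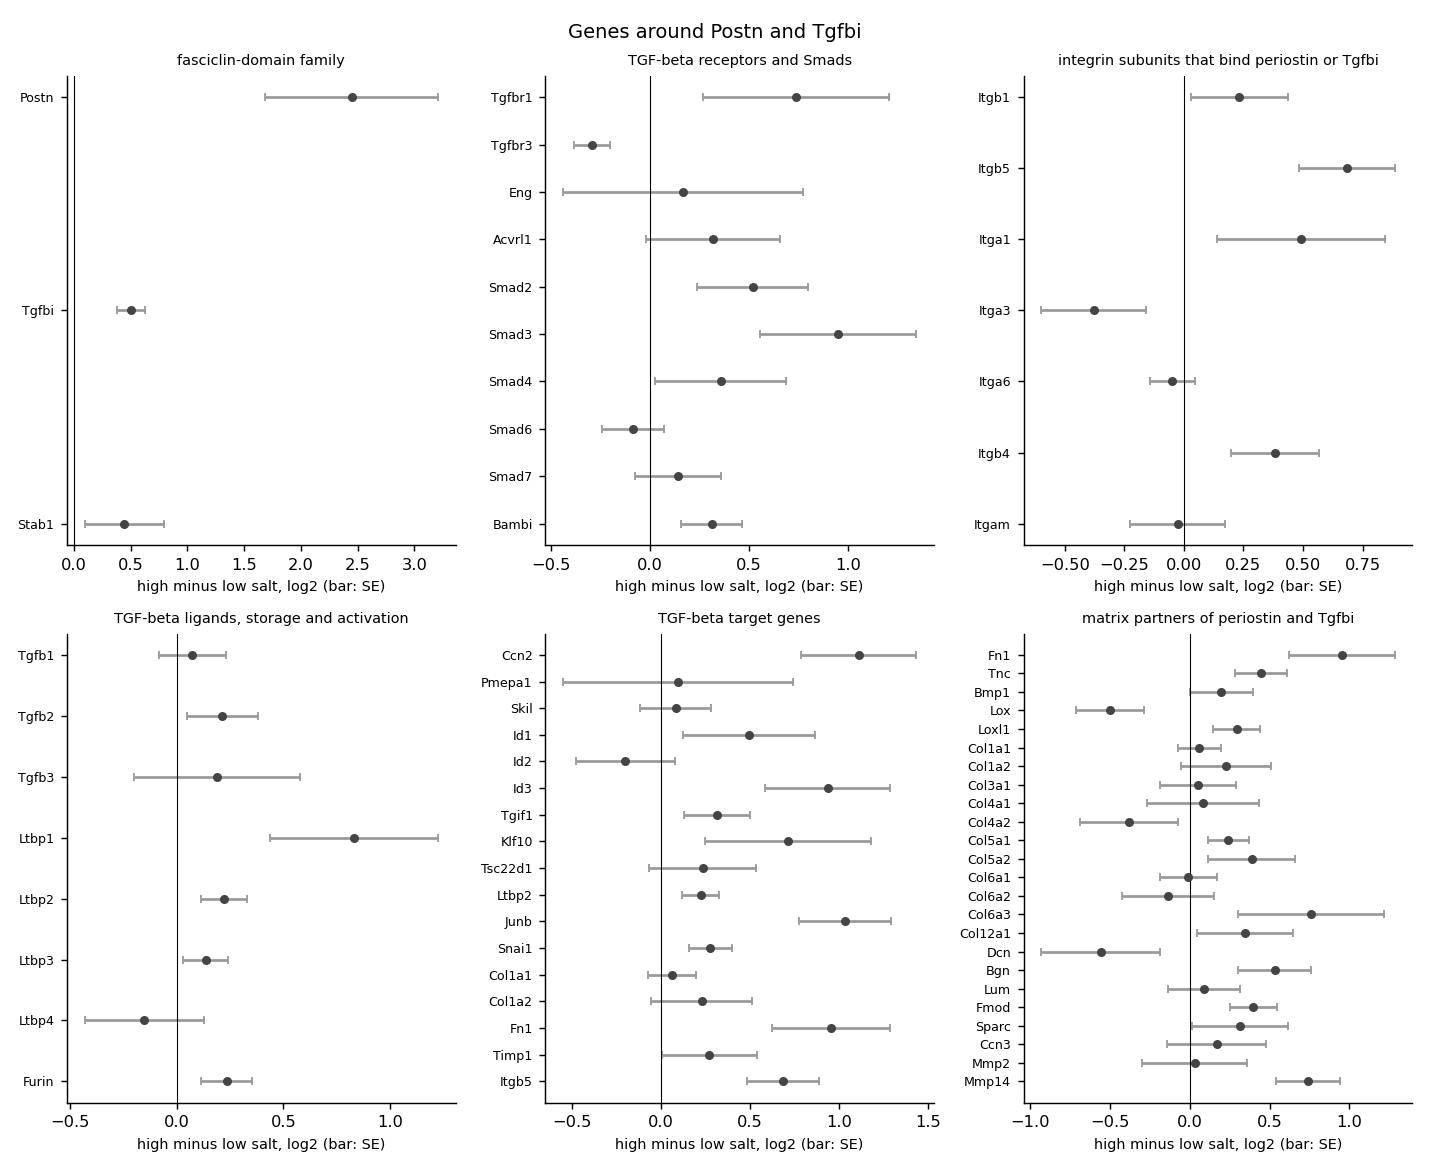
Difference between diets (horizontal axes, high salt minus low salt, log2 units) with the moderated SE as bars, for the genes of 6 lists on the fasciclin-domain family, TGF-beta signalling, integrins and matrix partners. The difference for Postn, 2.45, is the largest in the panels. Of the genes other than Postn and Tgfbi, which were not tested, 0 passed an adjusted p of 0.05.

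Of 24 matrix partners of the pair, 19 were on the high side, with a median of 0.21 that was -0.0095 after quantile normalization. At an unadjusted p below 0.05 stood 4, all on the high side: Mmp14 (a membrane protease, 0.74 ± 0.20), Fn1, Tnc (tenascin C, which periostin binds, 0.45 ± 0.16) and Fmod (fibromodulin, a collagen-binding proteoglycan, 0.40 ± 0.15). Tnc had its highest value where Postn had, in high salt replicate 3, with 6.83, 6.76 and 7.23 on high salt against 6.31, 6.59 and 6.57 on low salt. The signal was dim, with low salt values near the lower quartiles of those arrays (6.54 to 6.65). After median centring its unadjusted p was 0.089, and after quantile normalization 0.039 (limma). Dcn (decorin), which binds collagen as Tgfbi does, differed by -0.56 ± 0.37. Lox (lysyl oxidase), whose activation through Bmp1 periostin is reported to aid, differed by -0.50 ± 0.21, and Bmp1 by 0.20 ± 0.20. The fibrillar collagen Col1a2 was at 11.94 in high salt replicate 1, its lowest value of all 6 arrays, where Postn was at 9.78. It was at 12.84 both in high salt replicate 2, where Postn was at 7.28, and in replicate 3, where Postn was at 10.17. Of the reported inducers of Postn other than TGF-beta itself, Twist1 stood between 5.22 and 5.79 on all arrays. Bmp2 differed by 0.66 ± 0.43, with its lowest high salt value (9.08) in replicate 2, as for Postn. Pdgfa (8.77) and Notch1 (9.19) were also lowest on high salt there. Bmp4, which differed by 0.78 ± 0.40, was highest on high salt in that pool (10.44), and so was Ccn2 (13.04). The inducers thus did not share an order of pools. Of 14 listed inducers, Tgfb1 included, 10 were on the high side, with a median of 0.18 and 1 (Ccn2) at an unadjusted p below 0.05. All 6 measured genes listed for the vitamin K-dependent carboxylation of proteins were on the high side, with a median of 0.34. That modification is reported for both periostin and Tgfbi. Gas6 (0.47 ± 0.16) was the 1 gene of that list with an unadjusted p below 0.05. Of 18 other matricellular genes, 15 were on the high side with a median of 0.19, and 4 had an unadjusted p below 0.05, namely Spp1, Ccn2, Lgals3 (galectin 3, 0.69 ± 0.22) and Tnc. The series was titled for over-expression of this group in these samples, so that its count is not independent evidence.

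Markers of the cells that could carry the pair's RNA were set beside it. The counts of markers on the high side stand beside 60.0% of all genes on that side as deposited. In whole arteries, more cells of a type and more RNA per cell cannot be told apart. Smooth muscle markers identified the tissue, with Myh11 between 13.13 and 13.67 on every array. Fibroblast markers, 12 genes with 7 on the high side, did not follow Postn across the arrays. Their mean log2 level was 11.28, 11.39 and 11.46 on low salt and 11.12, 11.56 and 11.39 on high salt, so that it was lowest in replicate 1, where Postn was at 9.78, and highest in replicate 2, where Postn was at 7.28. The part of fibroblast RNA in the Postn difference was not tested. Macrophage and microglia markers, 13 genes with 11 on the high side, had a mean of 9.20, 9.26 and 9.64 on low salt and 9.57, 9.92 and 9.72 on high salt, highest in replicate 2, as Tgfbi was; their part in the Tgfbi difference was not tested. Astrocyte markers, with 9 of 10 on the high side, averaged 9.22, 10.55 and 8.55 on low salt and 10.56, 10.24 and 10.30 on high salt. In low salt replicate 2, where this mean was 10.55, Postn was at 6.54 and Tgfbi at 10.19. Without that array the differences were 2.40 for Postn and 0.53 for Tgfbi, and the part of astrocyte RNA in either difference was not tested. Leptomeningeal markers, all 7 on the high side, ran from 9.73 to 11.11 on low salt and from 10.90 to 11.41 on high salt, highest in replicate 2. Their part in the difference of either gene was not tested.

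The mean of the red blood cell markers moved with Postn. All 3 measured were on the high side, and their mean was 10.03, 10.22 and 10.17 on low salt and 10.99, 10.46 and 11.18 on high salt, in the same order of high salt arrays as Postn. Hbb (a haemoglobin chain) was at 12.46, 13.28 and 13.26 on low salt and at 14.03, 13.80 and 13.99 on high salt. It was lowest on high salt in replicate 2, as Postn was, but highest in replicate 1, so that its order differed. Alas2 was at 9.89, 10.30 and 10.08 on low salt and at 11.05, 10.28 and 11.73 on high salt. As Alas2 is among the 8 genes most like Postn on these arrays, its share in the order of the mean is not independent. The part of blood in the Postn difference was not tested. Endothelial markers, 6 of 7 on the high side, averaged 9.73, 9.64 and 9.96 on low salt and 10.03, 9.99 and 10.17 on high salt, also lowest in replicate 2 of high salt but by a small step. Smooth muscle markers were on the low side for all 8 genes, with means from 11.12 to 12.02 on low salt and from 11.31 to 11.48 on high salt, and they did not set high salt replicate 2 apart. Of the marker sets not described above, pericyte markers had 3 of 7 on the high side, neuron markers 3 of 8, oligodendrocyte markers 3 of 6 and pituitary markers 1 of 7.

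**Figure D5:**
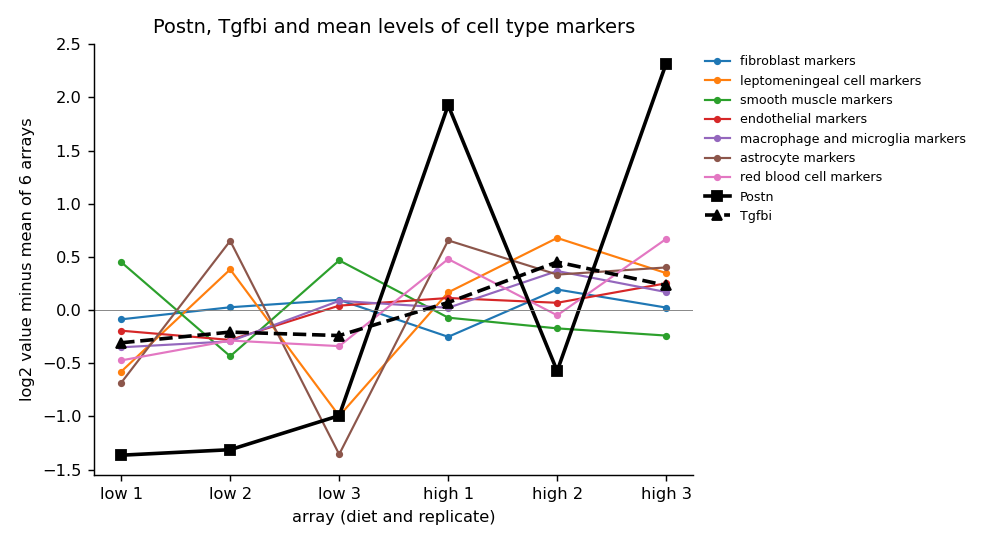
Log2 values of Postn and Tgfbi (black) and mean log2 levels of 7 sets of cell type markers (colours), each minus its mean over the 6 arrays (vertical axis), by array; the lines only join points of a gene or set. The mean of the red blood cell markers stands in the order of Postn on the high salt arrays, though Hbb alone does not. Fibroblast markers are lowest in high salt replicate 1, where Postn is 9.78.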

How the data were processed

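The series holds 6 Affymetrix arrays of RNA amplified in 2 cycles, per the labels' protocols. The authors deposited log2 values per probe set, made with RMA per the submitters' processing notes, which give no version. RMA (robust multi-array averaging) corrects for background, normalizes between arrays and yields 1 value per probe set. The deposited arrays still differed in spread, with upper quartiles from 9.22 to 9.71, and the reason was not tested. That the deposited values are log2 rests on their range. From the 15923 rows, 57 control probe sets were left out. Genes were named from the platform annotation (12783 probe sets with 1 symbol, 312 with several and 2771 with none, the latter 2 kinds unnamed here), symbols were matched by Entrez identifier to RefSeq (12748 matched, 0 changed), and each gene took its probe set of highest mean. Diets were compared with limma 3.58.1 in R 4.3.3 (lmFit, eBayes, no block), with Benjamini-Hochberg adjustment over 15866 probe sets, on differences of high salt minus low salt. The fit was also run on simulated data with independent noise for each value. That outcome is not given here, and nothing is read from it. The number of arrays limits the precision, and the spread between arrays holds both pool and technical error. The members and lists were chosen with earlier results of these data known. Besides the members, the naming rule took all measured ligand, integrin and family genes. From the other lists it took the brightest gene and the 4 of lowest p. It also took the brightest 2 and the lowest p of each marker set, the 8 genes most like each member, and Spp1. Not every gene under this rule is printed, so that those given are a selection. Itgav, Itgb3 and Stab2 are named as not analysed here. Lox, Bmp1, Bmp2, Twist1, Id2, Id3, Pmepa1, Skil and Col1a1 were added after their values were seen. The replicate numbers of the 2 diets were checked as pairs and do not mark shared material in the labels.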

Additional observations from a re-analysis of the deposited data

How the results depend on the processing

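Postn kept its direction in each setting run (median centring, quantile normalization, the replicate block and each array left out), from 1.90 to 3.35 with 1 array left out. Tgfbi did too, from 0.40 to 0.59, but was 0.25 after quantile normalization. The replicate number as a block gave 2.45 and 0.50, unchanged by construction, and 0 calls. Deviations of same-numbered arrays correlated at 0.038, -0.27 and 0.044, no low salt array correlated best with its own number, and the block changed no call. In limma 0 probe sets were called in all 14 settings (the weights of the array-weights fit stopped short of full convergence). At an unadjusted p below 0.05 stood 735 higher and 111 lower, which with 1 array left out ran from 312 and 54 (without high salt replicate 1) to 2026 and 696 (without low salt replicate 2). The 12 list genes at that level were 8 (without high salt replicate 1) to 31 (without low salt replicate 2) with 1 array left out, beside these counts over all probe sets, and 14 with the block. Of the 8 genes most like Postn 2 were shared after quantile normalization and 1 to 5 with 1 array left out, and for Tgfbi 2 and 1 to 5. Turned signs were sought among the genes of the naming rule and the list medians only. After median centring they were Tgfb1 (-0.057), C1qc (-0.027) and the focal adhesion median (-0.10). After quantile normalization they were C1qc (-0.12), Cspg4 (-0.068), Eng (-0.082), Ltbp2 (-0.027), Ltbp3 (-0.087), the focal adhesion median (-0.14) and the matrix partner median (-0.0095). The cause was not tested. Other probe sets were not compared because each gene had 1. The 6 arrays and the dim low salt Postn signal limit the precision.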
